A study of Mus musculus with 12 samples.

Results

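The 10 genes described here encode bZIP transcription factors of the AP-1 class: Fos, Fosb, Fosl1 and Fosl2 of the Fos group, Jun, Junb and Jund of the Jun group, Batf and Batf3 of the Batf group, and Atf3. They were chosen by gene symbol from general knowledge of the family, as 10 of the 23991 gene IDs in the files, and the rule itself uses no measured value, although earlier results of these data were known when the family was picked. All 10 were found, each with 1 entry per library, and 10 of 10 passed the filter on low values (at least 1 FPKM in at least 3 of the 12 libraries), as 10126 genes did in all. AP-1 proteins bind DNA only as dimers. Fos proteins pair with Jun proteins, Jun proteins also pair among themselves, and Batf and Batf3, which lack a transactivation domain, pair with Jun proteins and bind composite sites with IRF4 in T cells. In CD4+ T cells the dimers form downstream of the antigen receptor and of CD28, and BATF with JUNB is required for Th17 differentiation.

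RNA was profiled by sequencing in CD4+ T cells of male C57BL/6 mice aged 8 to 10 weeks, isolated from spleen or lymph node by negative selection and cultured for 18 hours. The 4 groups of 3 libraries were Adcy10-/- cells in baseline medium with polarizing cytokines, Adcy10-/- cells in baseline medium, WT cells in baseline medium with polarizing cytokines, and WT cells in baseline medium. The labels title the libraries of all 4 groups as Th17, baseline ones included, and those with cytokines as plus Th17. Adcy10 encodes soluble adenylyl cyclase, which makes the second messenger cAMP, and the labels do not say which part of the gene is deleted or in which cells. The culture is described once for all cells, without saying which additions the baseline medium lacked. It lists wells coated with anti-CD3 at 10 µg/mL, soluble anti-CD28 at 2 µg/mL, the cytokines IL-1β and IL-23 at 20 ng/mL each and IL-6 at 25 ng/mL, and antibodies that block IL-4 and interferon-γ at 1 µg/mL each. Whether the replicates of a group are separate animals is not in the labels, and the p-values therefore measure only the spread between these libraries. Because the libraries are bulk RNA, fewer cells of a type and less RNA per cell cannot be told apart.

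Values are FPKM, fragment counts normalised by the authors for transcript length and library size, so levels of different genes are compared per length. The libraries summed to 547870 to 594750 FPKM and held 9778 to 9925 genes at 1 FPKM or more. Absolute depth is unknown, and the steps between low values put the deepest library at 1.40 times the shallowest. Every library, WT included, lists Adcy10 itself at 0 FPKM, and the targeted gene thus gives no check of the genotypes. CD4 T cell identity genes summed to 2509 to 3031 FPKM per library, with all 11 that were found passing the filter. The 4 libraries numbered 1 stood apart from numbers 2 and 3 on the next principal component after the one that separated the media (22.6% and 34.3% of the variance), and their B cell markers summed to 2.47 to 13.5 FPKM against 31.9 to 89.9 FPKM in the other 8. Of these 8 markers 7 passed the filter and 0 were at 0 in all libraries. The CD8 T cell gene Cd8a was lower in the libraries numbered 1 too, at 0.0673 to 0.225 FPKM against 0.933 to 2.52 FPKM in the other 8. The summed markers of CD8 T and NK cells overlapped, at 26.8 to 55.4 FPKM against 29.4 to 54.6 FPKM.

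cAMP acts on transcription mainly through CREB-type bZIP proteins, which bind the cAMP response element. The bases just before the start site are therefore shown for the 5 members that hold the half-site of that element there. Each line is the 120 bases before the RefSeq start site in GRCm38.p6, 5′ to 3′ on the gene's strand, with the half-site TGACG, read on either strand, in capitals.
Fos: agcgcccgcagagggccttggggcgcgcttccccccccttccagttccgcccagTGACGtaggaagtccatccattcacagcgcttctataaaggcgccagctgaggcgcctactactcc
Fosb: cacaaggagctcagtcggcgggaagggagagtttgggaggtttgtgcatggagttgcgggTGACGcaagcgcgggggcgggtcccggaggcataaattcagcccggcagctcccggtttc
Junb: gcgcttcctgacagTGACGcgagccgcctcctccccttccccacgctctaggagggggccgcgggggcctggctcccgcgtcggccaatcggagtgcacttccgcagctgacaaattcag
Batf: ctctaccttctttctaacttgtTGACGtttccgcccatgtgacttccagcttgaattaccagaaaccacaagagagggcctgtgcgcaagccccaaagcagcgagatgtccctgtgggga
Atf3: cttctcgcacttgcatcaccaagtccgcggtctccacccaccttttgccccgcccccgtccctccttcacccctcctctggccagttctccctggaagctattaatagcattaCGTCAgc
These stretches lie at chr12:85473770-85473889 on the plus strand for Fos, chr7:19310046-19310165 on the minus strand for Fosb, chr8:84978749-84978868 on the minus strand for Junb, chr12:85686600-85686719 on the plus strand for Batf, and chr1:191183334-191183453 on the minus strand for Atf3. The search covered 250 bases before to 50 bases after the start in the 9 members with a RefSeq window, and Fosl1 had none. TGACG, which is also part of the full element TGACGTCA, occurred in 5 of 9 members and in 20.8% of all 32851 windows of the same length. Counted from the start site, it lay at -66 and, outside the printed bases, at -129 in Fos, at -60 in Fosb, at -106 in Junb and at -98 in Batf. In Atf3 it was read from the other strand, as CGTCA, at -7. The full element was in none of the 9 windows and in 1.79% of all windows. The AP-1 site TGACTCA, whose other strand reads TGAGTCA, was in none of the 9 and in 5.20% of all. The CArG box was in none of the 9 and in 1.63% of all. The STAT-type sequence TTCNNNGAA occurred in Batf3 only, against 8.30% of all windows. A match is a description of letters, not a binding site.

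The summed level of the 10 genes rested on 3 of them. Junb, Jund and Batf together made up 91.6% to 92.4% of the summed FPKM in Adcy10-/- cells with cytokines, 89.9% to 90.0% in Adcy10-/- cells at baseline, 91.3% to 92.5% in WT cells with cytokines and 89.3% to 90.8% in WT cells at baseline. With cytokines the order of mean levels was Junb, Batf, Jund, Jun and Fosl2 in both genotypes, and no neighbours among these 5 overlapped over the 3 libraries of a group. At baseline Jund ranked above Batf in both genotypes. The ranges of Junb and Jund overlapped at baseline in Adcy10-/- cells, and those of Jund and Batf overlapped at baseline in WT cells. Atf3 had rank 6 with cytokines in both genotypes, and at baseline it had rank 5, above Fosl2 but overlapping it. Fos, Fosl1 and Batf3 stood at 1.29 to 6.62 FPKM over all 12 libraries, overlapping one another in every group, and Fosb was lowest in each group, overlapping Batf3 at baseline.

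**Figure D1:**
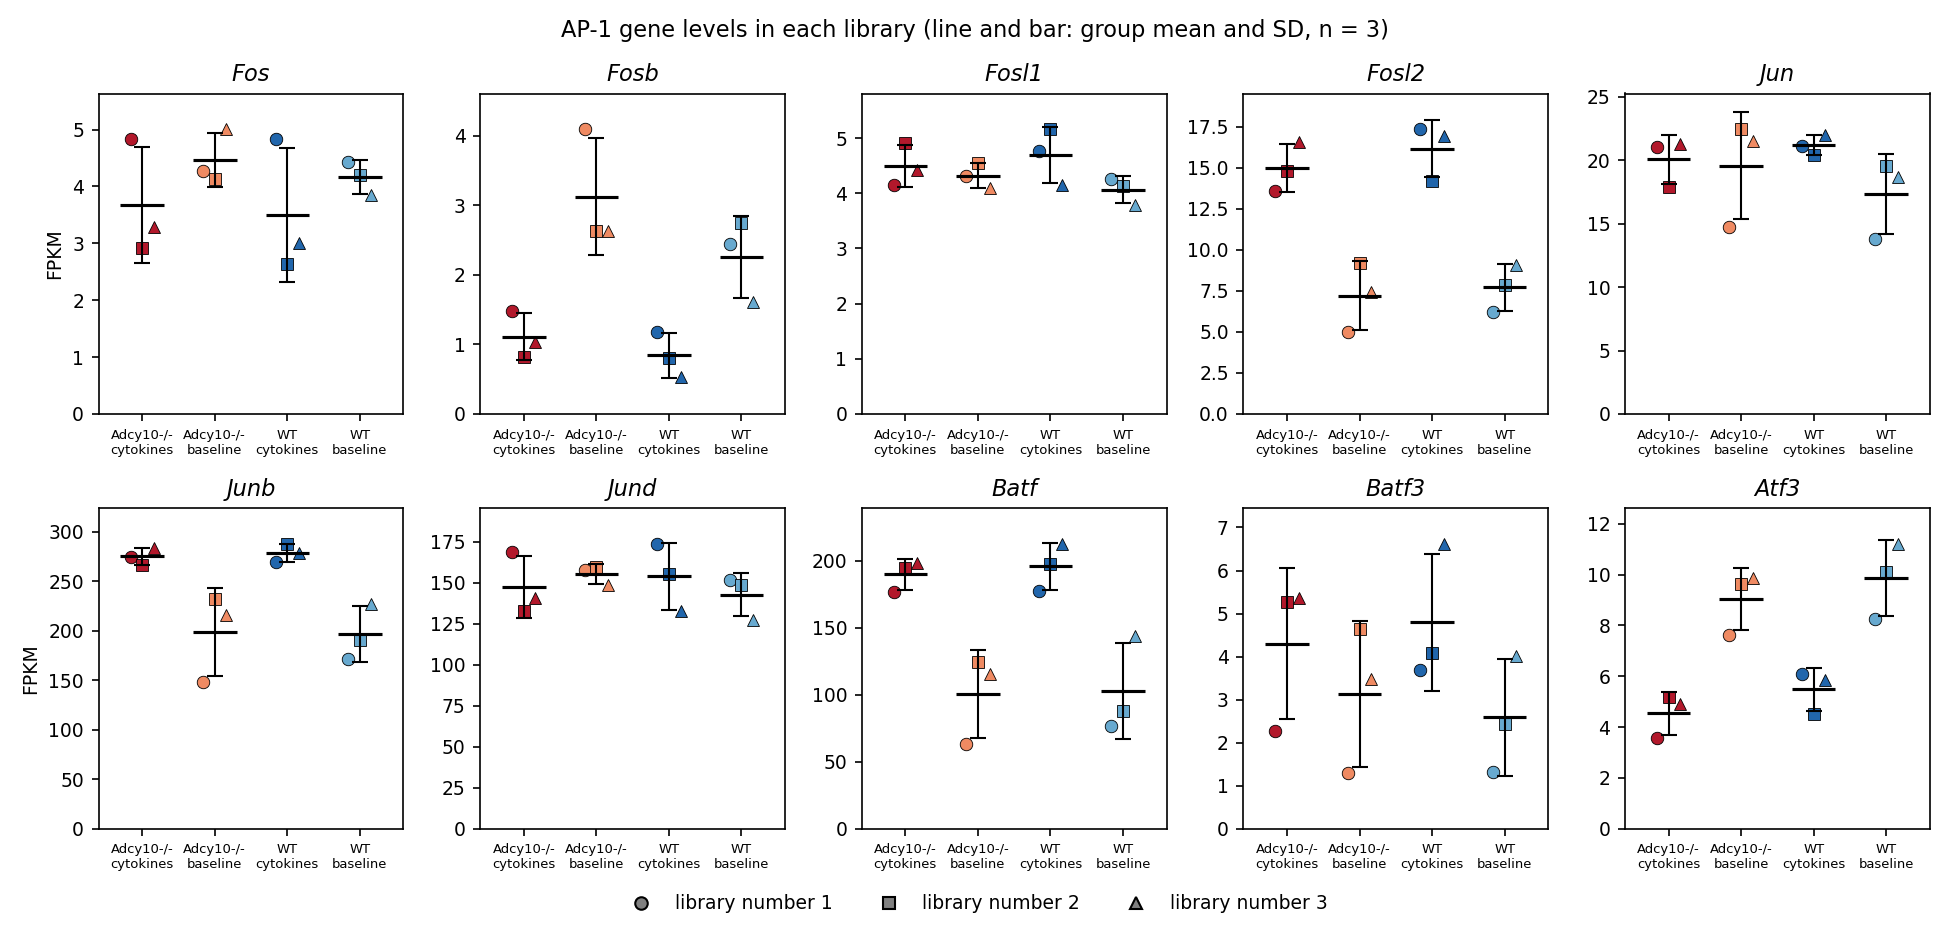
Level of each of the 10 AP-1 genes in FPKM (linear axis from 0, own scale per gene) in Adcy10-/- cells with cytokines, Adcy10-/- cells at baseline, WT cells with cytokines and WT cells at baseline. Points are libraries and bars are the mean ± SD of 3. Fosl2, Junb and Batf lie higher and Fosb and Atf3 lower with cytokines in both genotypes.

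The medium was compared first, within each genotype. Fosl2 rose and Fosb and Atf3 fell with polarizing cytokines in both genotypes, and Batf rose in WT cells and just missed the threshold in Adcy10-/- cells. By limma on log2(FPKM + 1), with p-values adjusted by the Benjamini-Hochberg method over all 10126 genes and a threshold of 0.05, 1 member was higher and 2 were lower in Adcy10-/- cells, where 4.27% of all tested genes were called (2.14% higher and 2.12% lower). In WT cells 2 members were higher and 2 lower, where 4.93% of all tested genes were called (2.65% higher and 2.28% lower). With the replicate number as a block in the model, which the likeness of same-numbered libraries allows for the cytokine effects, Batf and Junb passed as higher in both genotypes and Batf3 in WT cells. Members called higher were then 3 in Adcy10-/- cells and 4 in WT cells, and those called lower stayed at 2 in each, where 10.7% of all tested genes were called in Adcy10-/- cells and 14.8% in WT cells. The calls of Fosl2, Fosb and Atf3 without the block were shared by both genotypes in the same direction, as were those of 3.27% of all tested genes. The groups did not overlap for 5 members in Adcy10-/- cells, against 21.6% of all genes, and for 6 members in WT cells, against 20.8%. The median change of the 10 members was 0.05 in Adcy10-/- cells and 0.23 in WT cells on the log2 scale, beside -0.02 and -0.01 over all tested genes. In absolute size the member median was 0.44 in Adcy10-/- cells and 0.62 in WT cells, beside 0.08 and 0.09 over all tested genes.

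**Figure D2:**
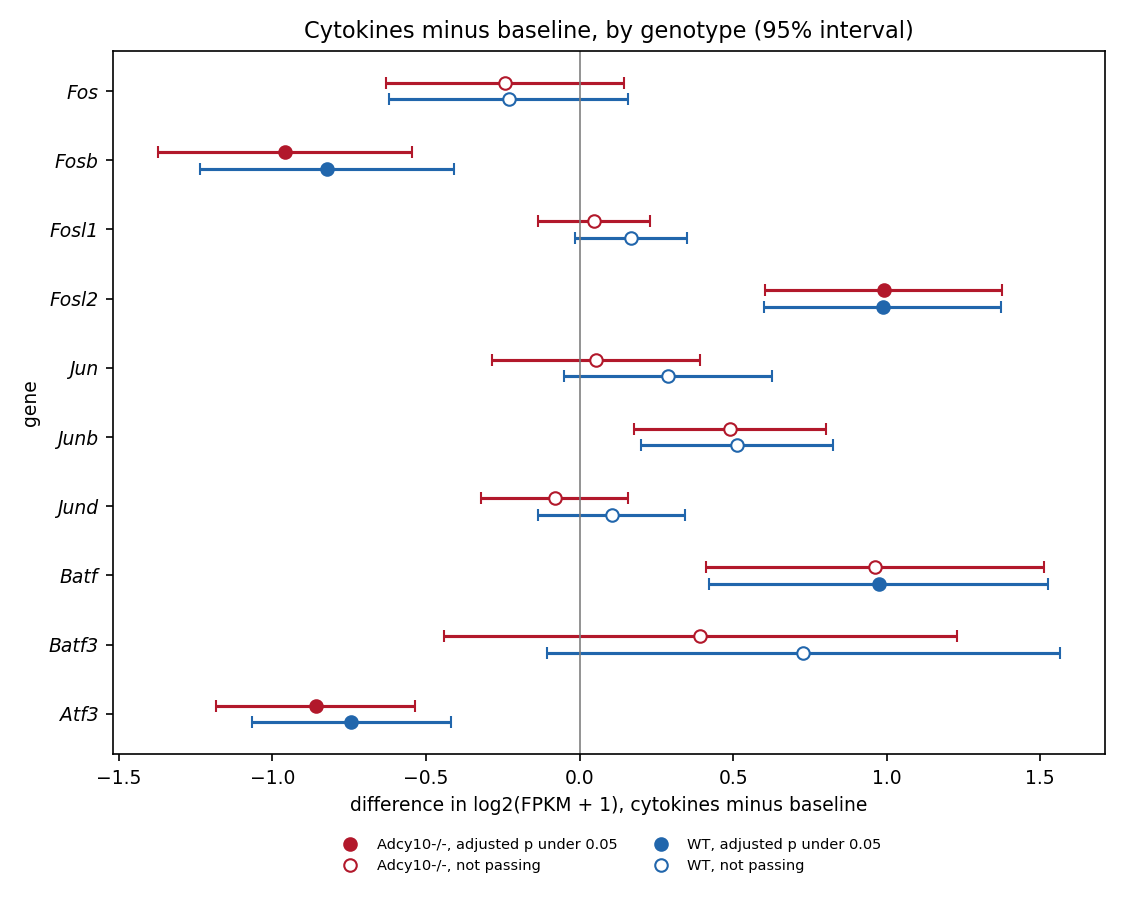
Change of each gene with polarizing cytokines (cytokines minus baseline, log2(FPKM + 1) scale, with 95% intervals from limma) in Adcy10-/- and in WT cells. The intervals of Fosb and Atf3 lie below 0 and those of Fosl2, Batf and Junb above 0 in both genotypes.

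In the Fos group the members moved in different directions. Fosl2, which encodes FRA2, stood at 13.6, 14.8 and 16.5 FPKM in Adcy10-/- cells with cytokines, against 5.02, 9.22 and 7.41 FPKM in Adcy10-/- cells at baseline (libraries 1, 2 and 3). In WT cells Fosl2 stood at 17.4, 14.2 and 17.0 FPKM with cytokines, against 6.23, 7.86 and 9.05 FPKM at baseline. In both genotypes every cytokine library lay above every baseline library. The log2 change was 0.99 (SE 0.18, adjusted p = 0.00938) in Adcy10-/- cells and 0.99 (SE 0.18, adjusted p = 0.00927) in WT cells.

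Fosb, an immediate early gene, went the other way. It stood at 1.48, 0.816 and 1.04 FPKM in Adcy10-/- cells with cytokines, against 4.10, 2.63 and 2.64 FPKM in Adcy10-/- cells at baseline. WT cells had 1.18, 0.810 and 0.537 FPKM of Fosb with cytokines and 2.44, 2.74 and 1.61 FPKM at baseline. All cytokine libraries lay below all baseline libraries of the same genotype. The log2 change was -0.96 (SE 0.19, adjusted p = 0.0156) in Adcy10-/- cells and -0.82 (SE 0.19, adjusted p = 0.0295) in WT cells, and the added 1 FPKM understates the change of a gene at this level. With the replicate block the calls held (adjusted p = 0.00141 in Adcy10-/- cells and 0.00282 in WT cells). Without the block they depended on single libraries, although the changes stayed close in size. In Adcy10-/- cells the call was lost without baseline library 1 (adjusted p = 0.0668), cytokines library 2 (0.0602) or cytokines library 3 (0.0550), and in WT cells without baseline library 1 (0.0813) or 2 (0.143) or cytokines library 2 (0.0819) or 3 (0.0952). In these fits the log2 change was -0.80, -0.86 and -0.94 in Adcy10-/- cells and -0.70 to -0.82 in WT cells. With no filter on low values (0.0653), or with only the WT libraries in the model (0.0606), the WT call of Fosb was lost as well, at the same log2 change. The ratio of Fosl2 to Fosb was 9.21 to 18.2 in Adcy10-/- cells with cytokines, against 1.22 to 3.50 in Adcy10-/- cells at baseline, and 14.8 to 31.5 in WT cells with cytokines, against 2.55 to 5.64 in WT cells at baseline.

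Fos and Fosl1 (FRA1) did not pass in either genotype. Fos, the classical partner of Jun, stood at 4.83, 2.91 and 3.29 FPKM in Adcy10-/- cells with cytokines, against 4.26, 4.13 and 5.01 FPKM at baseline. In WT cells it stood at 4.84, 2.63 and 3.01 FPKM with cytokines, against 4.43, 4.20 and 3.86 FPKM at baseline. In both genotypes Fos was higher with cytokines in the number 1 pair (0.15 and 0.10 on the log2 scale) and lower in the other pairs, and the groups overlapped. Its log2 change was -0.24 (95% interval -0.63 to 0.15) in Adcy10-/- cells and -0.23 (-0.62 to 0.16) in WT cells. Without the 4 libraries numbered 1, an exclusion chosen after the values were seen, it was -0.44 in Adcy10-/- cells (adjusted p = 0.115) and -0.40 in WT cells (adjusted p = 0.106). Fosl1 lay between 3.79 and 5.16 FPKM in all 12 libraries, with log2 changes of 0.05 (-0.14 to 0.23) in Adcy10-/- cells and 0.17 (-0.01 to 0.35) in WT cells. In GENCODE M21, 57.2% of the exonic bases of Fosl1 overlap Ccdc85b on the other strand, and whether the counting used strand is not given in the sources used here, so the 2 genes may share reads. Ccdc85b stood at 5.18 to 6.64 FPKM.

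Among the Jun genes, Junb was the only one whose cytokine libraries lay above all baseline libraries in both genotypes. JUNB partners BATF in Th17 cells. Junb stood at 275, 267 and 284 FPKM in Adcy10-/- cells with cytokines, against 149, 232 and 216 FPKM in Adcy10-/- cells at baseline, and at 270, 288 and 279 FPKM in WT cells with cytokines, against 171, 191 and 227 FPKM in WT cells at baseline. The cytokine libraries were close to one another (SD 3.11% of the mean in Adcy10-/- cells and 3.17% in WT cells) and the baseline libraries were spread more widely (22.2% and 14.5%). The log2 change of Junb was 0.49 (SE 0.14, adjusted p = 0.0854) in Adcy10-/- cells and 0.51 (SE 0.14, adjusted p = 0.0666) in WT cells, so Junb missed the threshold in both. With only the WT libraries in the model it passed in WT cells (adjusted p = 0.0444), and with only the Adcy10-/- libraries it did not pass in Adcy10-/- cells (0.168). Without the 4 libraries numbered 1, an exclusion chosen after the values were seen, it passed in WT cells (0.44, adjusted p = 0.0292) and not in Adcy10-/- cells (0.30). Leaving out 1 library could bring a call, in Adcy10-/- cells without Adcy10-/- baseline library 2 (adjusted p = 0.0414) and in WT cells without WT baseline library 3 (0.0399) or Adcy10-/- baseline library 1 (0.00683). Without Adcy10-/- baseline library 1 the Adcy10-/- change was 0.30 (adjusted p = 0.191). With the replicate block Junb passed as higher (adjusted p = 0.0194 in Adcy10-/- cells and 0.0143 in WT cells).

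Jun and Jund did not pass. Jun stood at 21.1, 17.9 and 21.3 FPKM in Adcy10-/- cells with cytokines, against 14.7, 22.5 and 21.5 FPKM in Adcy10-/- cells at baseline, and the groups overlapped. In WT cells Jun had 21.1, 20.4 and 22.0 FPKM with cytokines and 13.8, 19.6 and 18.7 FPKM at baseline, without overlap. Its log2 change was 0.05 (-0.29 to 0.39) in Adcy10-/- cells and 0.29 (-0.05 to 0.63) in WT cells. The Adcy10-/- change of Jun was positive only in the number 1 pair and was -0.17 without the libraries numbered 1. Jund, which is known for steady expression in many cell types, lay between 128 and 174 FPKM in all 12 libraries, with log2 changes of -0.08 (-0.32 to 0.16) in Adcy10-/- cells and 0.11 (-0.13 to 0.34) in WT cells. Other genes on the opposite strand overlap 52.6% of the exonic bases of Jund (Gm11175), 7.52% of Junb (Prdx2) and 7.28% of Jun (Junos). Prdx2 stood at 156 to 182 FPKM and its log2 changes were 0.03 in Adcy10-/- cells and 0.09 in WT cells.

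Batf was the member with the highest level after Junb in the presence of cytokines. It stood at 176, 195 and 198 FPKM in Adcy10-/- cells with cytokines, against 63.3, 124 and 115 FPKM in Adcy10-/- cells at baseline. WT cells had 177, 198 and 212 FPKM with cytokines and 76.4, 88.0 and 144 FPKM at baseline. In both genotypes the cytokine libraries all lay above the baseline libraries, which were again the more widely spread (SD 32.6% of the mean in Adcy10-/- cells and 35.1% in WT cells, against 6.15% and 8.95% with cytokines). The log2 change was 0.96 (SE 0.25, adjusted p = 0.0571) in Adcy10-/- cells and 0.97 (SE 0.25, adjusted p = 0.0497) in WT cells, on opposite sides of the threshold at nearly the same size. Of 12 fits that each left out 1 library, 3 kept the WT call (without WT baseline library 3, Adcy10-/- baseline library 1 or Adcy10-/- baseline library 2), and the adjusted p reached 0.196 without WT baseline library 2. The WT call was also lost with no filter on low values (0.104), quantile normalization (0.0516), a pseudocount of 0.1 (0.0506), no variance trend (0.0583) or only the WT libraries in the model (0.0606). In Adcy10-/- cells Batf passed without WT baseline library 1 (0.0435) or 3 (0.0248) or Adcy10-/- baseline library 2 (0.0419), and with quantile normalization (0.0484) or median-ratio scaling (0.0457). It did not pass in 17 of the 24 alternatives. The Adcy10-/- change fell to 0.66 (0.161) without Adcy10-/- baseline library 1. Without the 4 libraries numbered 1, an exclusion chosen after the values were seen, it was 0.71 (0.110). With the replicate block Batf passed in both (adjusted p = 0.00633 in Adcy10-/- cells and 0.00576 in WT cells). The ratio of Batf to Jund was 1.04 to 1.47 in Adcy10-/- cells with cytokines, against 0.401 to 0.777 in Adcy10-/- cells at baseline, and 1.02 to 1.60 in WT cells with cytokines, against 0.503 to 1.13 in WT cells at baseline.

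Batf3, known from dendritic cells and also expressed in activated T cells, varied with the replicate number. It stood at 2.28, 5.26 and 5.36 FPKM in Adcy10-/- cells with cytokines, against 1.29, 4.64 and 3.47 FPKM in Adcy10-/- cells at baseline. WT cells had 3.69, 4.08 and 6.62 FPKM with cytokines and 1.31, 2.44 and 4.01 FPKM at baseline. Library 1 was the lowest in each of the 4 groups, the groups of each genotype overlapped, and in both genotypes 3 of 3 number pairs had more Batf3 with cytokines. The log2 change was 0.39 (-0.44 to 1.23) in Adcy10-/- cells (adjusted p = 0.746) and 0.73 (-0.11 to 1.56) in WT cells (adjusted p = 0.338). Leaving out 1 library moved the Adcy10-/- change to between 0.01 (without Adcy10-/- baseline library 1) and 0.71 (without Adcy10-/- cytokines library 1), and the WT change to between 0.45 (without WT baseline library 1) and 1.00 (without WT baseline library 3). With the replicate block it passed in WT cells (adjusted p = 0.0270) and not in Adcy10-/- cells (adjusted p = 0.224), and with a block within genotype it passed in both (0.0495 in Adcy10-/- cells, where 11.8% of all genes were called, and 0.00371 in WT cells, where 15.5% were called). The libraries numbered 1 are also those with the low B cell marker sums and low Cd8a given above, and the part of other cells in the Batf3 values was not tested.

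Atf3, a stress-inducible factor that pairs with Jun proteins, stood at 3.59, 5.17 and 4.90 FPKM in Adcy10-/- cells with cytokines, against 7.64, 9.62 and 9.86 FPKM in Adcy10-/- cells at baseline. In WT cells it had 6.10, 4.51 and 5.85 FPKM with cytokines and 8.27, 10.1 and 11.2 FPKM at baseline. The groups did not overlap in either genotype. The log2 change was -0.86 (SE 0.15, adjusted p = 0.00752) in Adcy10-/- cells and -0.74 (SE 0.15, adjusted p = 0.0154) in WT cells. The Adcy10-/- call held without any single library, and the WT call was lost without WT baseline library 2 (adjusted p = 0.0735) or WT cytokines library 2 (0.0595).

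**Figure D3:**
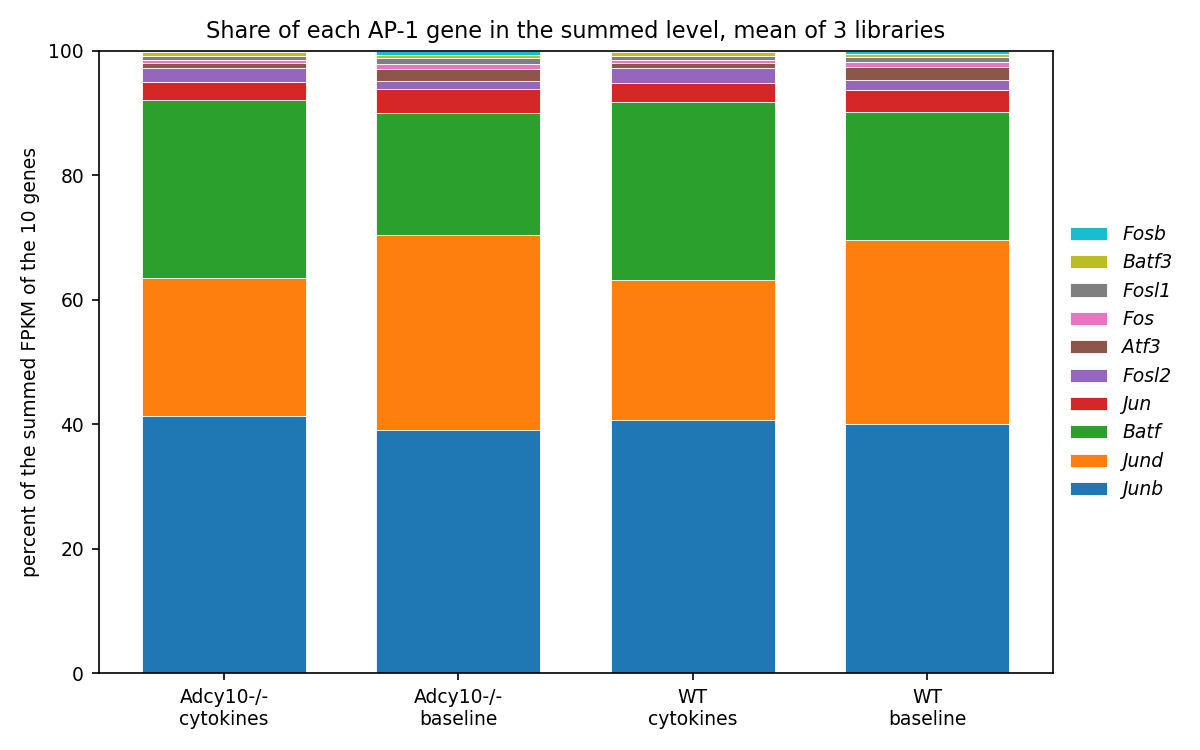
Share of each gene in the summed FPKM of the 10 AP-1 genes, in percent, as the mean of 3 libraries per group. Batf takes 28.5% in Adcy10-/- cells with cytokines, 19.5% in Adcy10-/- cells at baseline, 28.6% in WT cells with cytokines and 20.6% in WT cells at baseline.

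As shares of the summed level, Batf took 28.5% in Adcy10-/- cells with cytokines and 19.5% at baseline, and Jund took 22.1% and 31.3%, as the plot of shares shows. In WT cells Batf took 28.6% with cytokines and 20.6% at baseline, and Jund took 22.5% and 29.6%. Junb took 41.3% in Adcy10-/- cells with cytokines, 39.1% in Adcy10-/- cells at baseline, 40.7% in WT cells with cytokines and 40.0% in WT cells at baseline. The summed level itself was 666 ± 17.6 FPKM in Adcy10-/- cells with cytokines, against 506 ± 84.4 FPKM in Adcy10-/- cells at baseline, and 685 ± 6.60 FPKM in WT cells with cytokines, against 490 ± 56.2 FPKM in WT cells at baseline (SD, n = 3 each). Marker genes of other cells were summed in the same libraries. The 7 markers of CD8 T and NK cells, of which 4 passed the filter and 0 were at 0 in all libraries, summed to 26.8 to 35.3 FPKM in Adcy10-/- cells with cytokines, against 54.4 to 55.4 FPKM at baseline, and to 28.1 to 35.3 FPKM in WT cells with cytokines, against 48.4 to 52.6 FPKM at baseline. Eomes, which T cells also express, carried this difference, with means of 2.50 FPKM with cytokines and 25.7 FPKM at baseline in Adcy10-/- cells, and 2.39 FPKM with cytokines and 23.7 FPKM at baseline in WT cells. Without Eomes the other 6 summed to 24.8 to 32.8 FPKM in Adcy10-/- cells with cytokines, against 25.2 to 34.2 FPKM at baseline, and to 25.5 to 33.2 FPKM in WT cells with cytokines, against 22.6 to 29.7 FPKM at baseline. Myeloid marker sums were higher with cytokines in 6 of 6 pairs of the same number and genotype, at 23.3 to 44.9 FPKM with cytokines and 16.9 to 27.0 FPKM at baseline in Adcy10-/- cells, and 41.9 to 117 FPKM with cytokines and 25.9 to 70.6 FPKM at baseline in WT cells. B cell marker sums were lower with cytokines in 5 of 6 pairs, at 7.41 to 39.5 FPKM with cytokines and 13.5 to 55.9 FPKM at baseline in Adcy10-/- cells, and 3.06 to 53.0 FPKM with cytokines and 2.47 to 89.9 FPKM at baseline in WT cells. No myeloid or B cell marker passed by limma for either cytokine effect. The part of myeloid and B cells in the AP-1 changes was not tested.

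The genotype was compared within each medium, to ask whether AP-1 levels depended on Adcy10. No member passed the test between Adcy10-/- and WT cells. By limma 0 of 10 members passed at baseline, with cytokines, averaged over media or in the interaction, and 0% of the 10126 tested genes were called in any of these 4 comparisons. An unadjusted p under 0.05 was found for 118, 202, 180 and 112 genes (1.17%, 1.99%, 1.78% and 1.11%). That is fewer than a threshold of 0.05 gives on average where no gene differs. The fit may miss differences, and the reason for the low counts was not tested. With the replicate block 0 genes were called at baseline, with cytokines or in the interaction, and 3 in the average over media. None of the 10 members had an unadjusted p under 0.05 in any of the 4 without a replicate block. The groups overlapped for 10 of 10 members in each medium, where 4.99% of all genes did not overlap at baseline and 5.08% did not with cytokines. The median change of the members was 0.08 at baseline and -0.06 with cytokines, beside 0.00 and -0.01 over all genes.

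**Figure D4:**
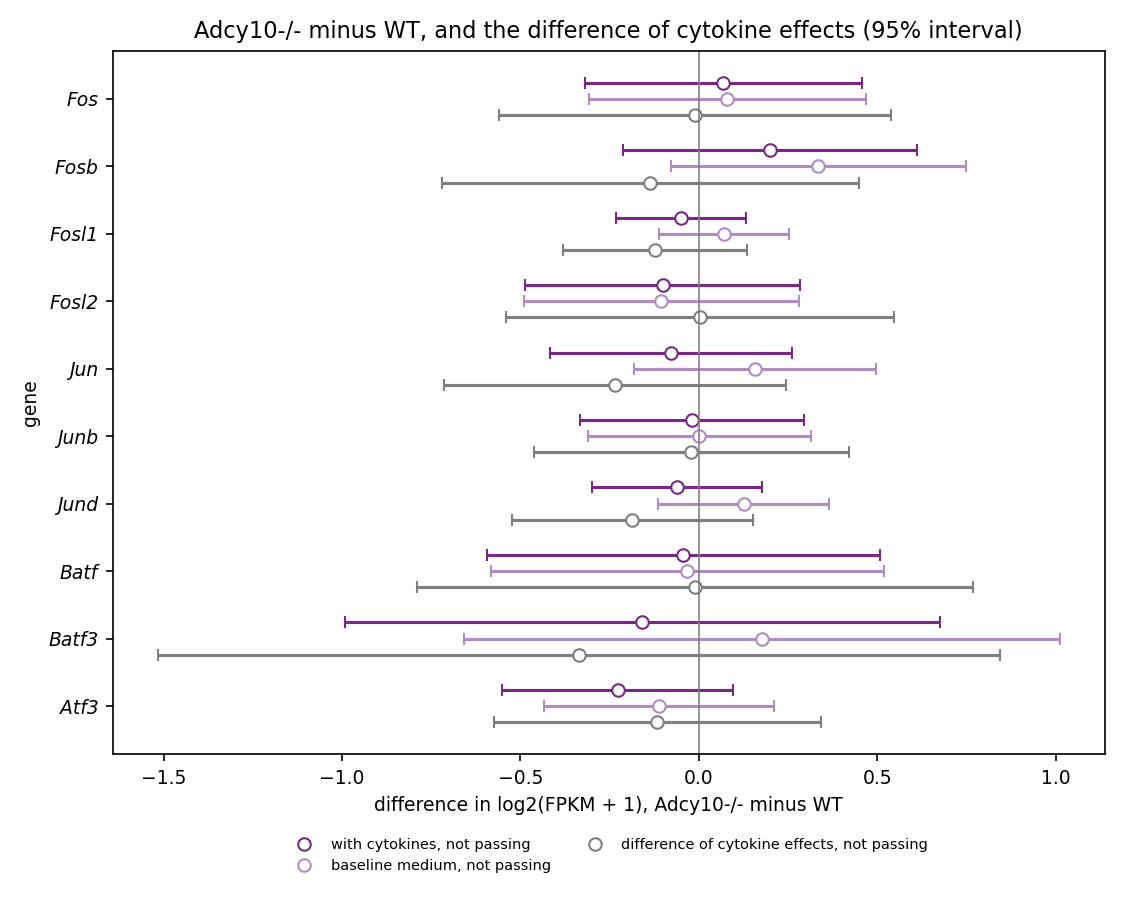
Difference of each gene between Adcy10-/- and WT cells at baseline and with cytokines, and the difference of the cytokine effects (Adcy10-/- minus WT), on the log2(FPKM + 1) scale with 95% intervals from limma. All 30 intervals include 0.

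Fosb had the largest difference at baseline, 0.34 (-0.08 to 0.75), with 3.12 ± 0.844 FPKM in Adcy10-/- cells and 2.26 ± 0.588 FPKM in WT cells (SD, n = 3 each), and the groups overlapped. Without Adcy10-/- baseline library 1 this difference was 0.17. With cytokines the Fosb difference was 0.20 (-0.21 to 0.61). Fosb was then higher in Adcy10-/- cells in 3 of 3 number pairs, but nearly equal in number 2 (0.816 against 0.810 FPKM). With the replicate block the Fosb interval was 0.06 to 0.61 at baseline (adjusted p = 0.999 and unadjusted p = 0.0226 by limma) and -0.08 to 0.48 with cytokines. The blocked average over media was 0.27 (0.07 to 0.46, adjusted p = 0.775 and unadjusted p = 0.0125 by limma). Whether the numbers pair libraries across genotypes was not settled in either medium. Atf3 differed by -0.11 (-0.43 to 0.21) at baseline and by -0.23 (-0.55 to 0.10) with cytokines, where it averaged 4.55 ± 0.844 FPKM in Adcy10-/- cells and 5.49 ± 0.856 FPKM in WT cells. All 3 most abundant members had groups that overlapped. Junb differed by 0.00 (-0.31 to 0.31) at baseline and by -0.02 (-0.33 to 0.29) with cytokines, Jund by 0.13 (-0.11 to 0.36) and -0.06 (-0.30 to 0.18), and Batf by -0.03 (-0.58 to 0.52) and -0.04 (-0.59 to 0.51). Fosl2 differed by -0.10 (-0.49 to 0.28) at baseline and by -0.10 (-0.49 to 0.28) with cytokines. The intervals given for Atf3, Junb, Jund, Batf and Fosl2 are from the fit without a block. Blocking by replicate number gave narrower intervals with cytokines, such as -0.42 to 0.34 for Batf, -0.50 to 0.04 for Atf3 and -0.57 to 0.25 for Batf3. Those of all members still included 0 with cytokines. The widest interval in the interaction was that of Batf3, -0.34 (-1.52 to 0.84), and the interaction of Fosl2 was 0.00 (-0.54 to 0.55). Differences within these intervals are not excluded here, and the intervals are not a limit of detection. A change whose interval leaves out 0 can still miss the adjusted threshold, as the cytokine effect of Junb did without the block. The myeloid marker sums ran lower in Adcy10-/- than in WT cells in libraries 1 and 3 of both media, with no test passed. In library 2 they ran slightly higher, at 27.0 against 25.9 FPKM at baseline and 44.9 against 41.9 FPKM with cytokines. Of the 10 found, 5 passed the filter and 0 were at 0 in all libraries, and their part in the genotype values was not tested.

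**Figure D5:**
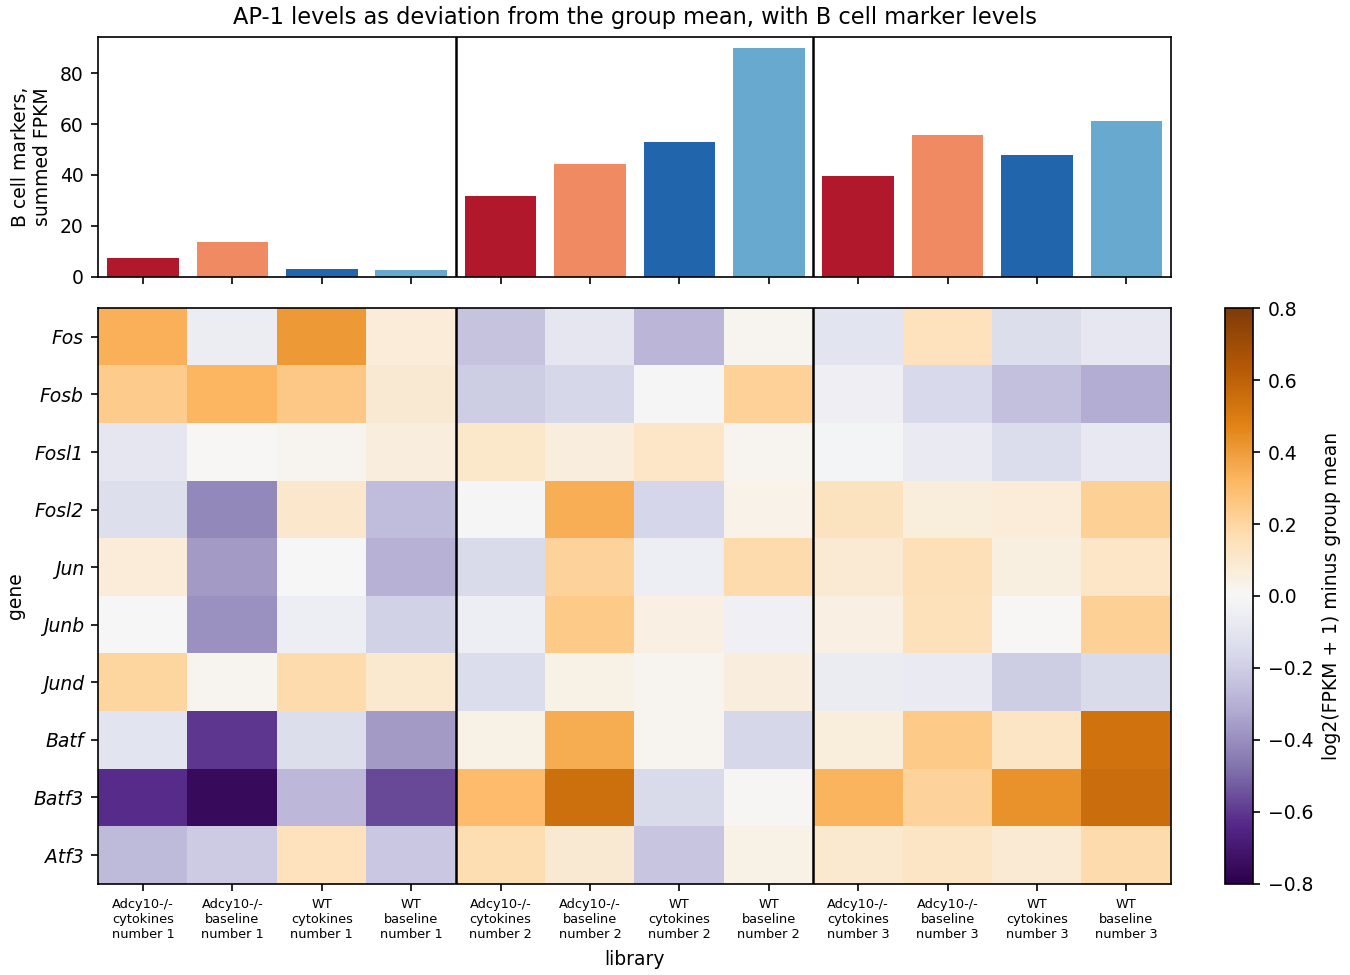
Deviation of each library from the mean of its group, on the log2(FPKM + 1) scale, for the 10 AP-1 genes, by replicate number and group, under bars of the summed FPKM of the B cell markers in the same library. Orange is above and purple below the group mean. Batf3 is below its group mean in all 4 libraries numbered 1, by -0.27 to -0.76, and Fosb is above it in all 4.

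Within groups some members deviated with the replicate number. Batf3 lay below its group mean in all 4 libraries numbered 1, by -0.27 in WT cells with cytokines to -0.76 in Adcy10-/- cells at baseline. Batf lay below its group mean in all 4 too, by -0.10 to -0.60. Junb lay below it at baseline, by -0.39 in Adcy10-/- cells and -0.19 in WT cells. With cytokines Junb was at or near its group mean, at -0.0003 in Adcy10-/- cells and -0.05 in WT cells. Fosb lay above its group mean in all 4, by 0.09 to 0.32, and so did Jund, by 0.02 to 0.20. Over the 12 libraries, after the group means were removed, the deviations of Junb and Batf correlated at r = 0.95, those of Fosl2 and Junb at 0.87, and those of Fosb and Batf3 at -0.87. These correlations are a description over libraries that share the replicate numbers. The genes whose log2 levels were most like a member over the 12 libraries, of 9587 compared, included Ly6a (Pearson r = 0.991) and Batf (0.986) for Junb, Etv6 (0.995), Nfil3 (0.992) and Pkm (0.989) for Batf, and Skap2 (0.982), Il21 (0.982) and Gfi1 (0.979) for Fosl2. For Fosb they included Tapbp (0.971) and Pex6 (0.966), for Atf3 Sh2d1a (0.954), Atad1 (0.950) and Abcg2 (0.950), and for Batf3 Il12rb2 (0.967), Oxsr1 (0.966) and Nek6 (0.965). The highest values were lower for Jund (Pgls, 0.920), Fos (Atg12, 0.905), Jun (Fam222b, 0.884) and Fosl1 (Dynlt1f, 0.865). These likenesses span both media, so they include the medium's own effect.

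Genes around the family were counted by list, to be read beside the 4.27% of all tested genes called in Adcy10-/- cells and 4.93% in WT cells. Of 25 tested bZIP partners and competitors, 3 rose and 0 fell with cytokines in Adcy10-/- cells, and 4 rose and 1 fell in WT cells, which is 12% and 20% of the list called. Maf, which drives IL-21 and IL-10 in T cells, rose by 1.29 (SE 0.17, adjusted p = 0.00146) in Adcy10-/- cells and by 1.18 (SE 0.17, adjusted p = 0.0027) in WT cells. The unfolded protein factor Xbp1 rose by 0.50 in Adcy10-/- cells and 0.46 in WT cells, Atf6 rose by 0.42 in Adcy10-/- cells, and Nfil3 (1.24) and Ddit3 (0.56) rose in WT cells. The gene that fell in WT cells was Creb1 (-0.30), named here after its value was seen. The list medians were 0.04 in Adcy10-/- cells and 0.05 in WT cells, beside -0.02 and -0.01 over all genes. Of the 8 genes for partners at composite sites, IRF4, IRF8, NFAT, ETS and STAT3, 0 passed by limma in either genotype. Nfatc2 came nearest, at 0.30 (adjusted p = 0.0831) in Adcy10-/- cells and 0.33 (adjusted p = 0.0512) in WT cells.

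Of 26 genes of the MAP kinase pathways that induce and activate AP-1, 2 rose and 0 fell in each genotype, which is 7.69% of the list and rests on only 2 genes. Of all tested genes 2.14% were called higher in Adcy10-/- cells and 2.65% in WT cells (4.27% and 4.93% called in either direction). Map3k8, which encodes the kinase TPL2, rose by 0.91 in Adcy10-/- cells (SE 0.19, adjusted p = 0.0186) and by 0.86 in WT cells (SE 0.19, adjusted p = 0.0234), and Mapk11, a p38 kinase gene, rose by 0.38 in both. Of 19 tested immediate early genes other than the members, 1 rose and 3 fell in Adcy10-/- cells and 1 rose and 4 fell in WT cells. The genes that fell make up 15.8% of the list in Adcy10-/- cells, beside 2.12% of all tested genes, and 21.1% in WT cells, beside 2.28%, and the 1 that rose makes up 5.26%, beside 2.14% and 2.65%. Nr4a3, an orphan nuclear receptor gene induced by the antigen receptor, stood at a mean of 16.3 FPKM in Adcy10-/- cells with cytokines, against 34.6 FPKM at baseline, and fell by 1.08 on the log2 scale. It fell by 1.12 in WT cells. Egr3 fell by 0.82 in Adcy10-/- cells and 0.72 in WT cells, and Dusp5, a phosphatase acting on ERK, fell by 0.80 in Adcy10-/- cells and 0.59 in WT cells. Ier3 rose by 0.68 in Adcy10-/- cells and 0.82 in WT cells. The fourth gene that fell in WT cells was Nr4a2 (-0.44), named after its value was seen. The list medians were -0.21 in Adcy10-/- cells and -0.08 in WT cells.

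Among 23 tested genes known as targets of AP-1 or BATF in T cells, 5 rose and 2 fell in Adcy10-/- cells and 5 rose and 3 fell in WT cells, with list medians of 0.54 and 0.51. These calls are 30.4% of the list in Adcy10-/- cells and 34.8% in WT cells, beside 4.27% and 4.93% of all tested genes. Il21, a cytokine of Th17 and follicular helper cells, had a mean of 69.0 FPKM in Adcy10-/- cells with cytokines, against 5.98 FPKM at baseline (log2 change 3.53, SE 0.50, adjusted p = 0.00235), and it rose by 3.43 in WT cells. The gene of the anti-inflammatory cytokine IL-10, Il10, rose by 1.02 in Adcy10-/- cells and 1.10 in WT cells. The death ligand gene Fasl fell by 1.54 in Adcy10-/- cells and 1.45 in WT cells. Further genes called, named after their values were seen, were the inhibitory receptor gene Ctla4 (0.66 in Adcy10-/- cells and 0.63 in WT cells) and the activation marker Cd69 (-0.35 and -0.33), with Bcl6 (0.54) in Adcy10-/- cells and Il1r1 (0.74) and Cd40lg (-0.48) in WT cells. The list mixes genes that AP-1 is known to raise with genes tied to other helper lineages, and its members were picked with earlier results of these data known, so their direction is not independent evidence. No gene of any of these lists passed by limma between Adcy10-/- and WT cells in either medium or in the interaction.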

How the data were processed

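The authors deposited FPKM per gene for each of the 12 libraries, made per the submitters' processing notes with STAR 2.4.0f1, SAMtools 0.1.19, Cufflinks and HTSeq on mm9. Roles, strand setting and depth are not given in the sources used here. FPKM carries no read counts, and error is measured by the spread between libraries alone. Of 23991 gene IDs, 258 had several entries (755 of 24488 per file), which were added up; the members had 1 each. The 10126 genes that reached 1 FPKM in 3 or more libraries, of 16728 above 0, were tested as log2(FPKM + 1), which understates changes of low genes.

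Group means were compared in limma 3.58.1 (R 4.3.3, data.table version 1.17.8) in 1 model of the 4 groups, with a variance trend. P-values of all 10126 genes were adjusted together (Benjamini-Hochberg), with a threshold of 0.05. The cytokine effect (cytokines minus baseline) was taken per genotype and the genotype effect (Adcy10-/- minus WT) per medium and as their average, with the interaction as the difference of the cytokine effects. Errors are moderated SE and intervals are 95%. The steps were tested on simulated data with independent noise and no effect of the replicate number. Changes were added only to genes that were not low and had a spread under the median. That test therefore does not cover low or widely spread genes, or libraries that share a number effect. Tables and figures used Python 3.11.15, numpy 2.4.6, pandas 2.3.3 and matplotlib 3.10.9.

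The members were picked by symbol, with no measured value in the rule, but they and the lists were chosen with earlier results of these data known. All 10 members are named. Of each other list, at most 4 called genes per comparison with the largest change, or else the gene with the smallest p, are named, and for each member the 3 genes with the highest correlation (predicted genes and small RNAs left out). Some genes within this rule are not reported here. Residuals of libraries of the same number and genotype in the other medium correlated at 0.294 to 0.536 (6 pairs), and those of the same number in the other genotype at 0.262 to 0.422 with cytokines and 0.0736 to 0.523 at baseline (3 pairs each). The numbers were therefore taken as pairing the libraries for the cytokine effects. Across genotypes the pairs numbered 1, 2 and 3 gave 0.523, 0.0736 and 0.371 at baseline, and 0.422, 0.270 and 0.262 with cytokines. The low end at baseline was the number 2 pair alone. Whether the numbers pair libraries across genotypes was therefore not settled in either medium. Alternatives were other pseudocounts, filters and scalings, no variance trend, only the groups compared, the replicate block and leaving out libraries. Promoter sequences are RefSeq's.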

Additional observations from a re-analysis of the deposited data

How the results depend on the processing

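The directions and calls of Fosl2 (both genotypes) and of the Adcy10-/- Atf3 cytokine effect held in all 24 alternatives run. The 10126 tested genes gave 432 calls for the Adcy10-/- cytokine effect and 499 for the WT one. These became 1086 and 1502 with the replicate block and 1193 and 1574 with the block within genotype. Without the 4 libraries numbered 1, chosen after the data were seen, the Adcy10-/- count was 205, and with only the groups compared the WT count was 275. Members called higher in Adcy10-/- cells (1) became 2 with quantile normalization or median-ratio scaling, 3 with the replicate block and 4 with the block within genotype. Those called lower (2) became 1 with a mean of at least 5 FPKM, a filter that leaves out Fosb, Fos, Fosl1 and Batf3. Members called higher in WT cells (2) became 1 with a pseudocount of 0.1, no filter, quantile normalization or no variance trend, and 4 with either block. Those called lower in WT cells (2) became 1 with no filter, a mean of at least 5 FPKM or only the groups compared. Genes called between genotypes (0) became 2 with cytokines and 2 averaged without the libraries numbered 1, 3 averaged with the replicate block, and 1 in the interaction without the libraries numbered 1, none of them members. The replicate block moved no other member call. The cause of these shifts was not tested.

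Leaving out 1 library at a time gave 196 to 465 genes for the Adcy10-/- cytokine effect and 164 to 536 for the WT one. Members called higher were 1 to 3 in Adcy10-/- cells and 1 to 3 in WT cells, and members called lower were 1 to 2 and 0 to 2. Genotype counts were 0 to 1 with cytokines, averaged and in the interaction. Near-zero log2 values changed sign. Without the libraries numbered 1 they were -0.17 for Jun (Adcy10-/- cytokine effect), 0.0867 for Batf (genotype at baseline), 0.00746, 0.0121 and 0.0206 for Fosl1, Fosl2 and Batf3 (genotype with cytokines) and 0.0904 for Atf3 (interaction). With quantile normalization they were -0.0145 for Junb (genotype at baseline), 0.0104 and 0.00454 for Junb and Batf (genotype with cytokines) and 0.0249 and 0.0369 for Junb and Batf (interaction). With 1 library left out the ranges were, for the interaction, Atf3 -0.229 to 0.0155, Batf -0.314 to 0.173, Fos -0.181 to 0.193, Fosb -0.258 to 0.0268, Fosl2 -0.204 to 0.177, Junb -0.216 to 0.103, for genotype at baseline, Batf -0.216 to 0.271, Batf3 -0.104 to 0.555, Fosl2 -0.279 to 0.103, Junb -0.122 to 0.197, for genotype with cytokines, Batf -0.112 to 0.0171, Batf3 -0.322 to 0.157, Fos -0.101 to 0.273, Fosl1 -0.121 to 0.00822, Junb -0.0417 to 0.00386, Jund -0.162 to 0.0297, and for the Adcy10-/- cytokine effect, Fosl1 -0.0079 to 0.0919, Jun -0.13 to 0.159. Depth is not known, and what it limits in each gene cannot be given.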
